A study of Homo sapiens with 9 samples.

Results

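The 4 SERTAD genes SERTAD1, SERTAD2, SERTAD3 and SERTAD4 and the 2 DP genes TFDP1 and TFDP2 were followed in HEK293T cells (a line derived from human embryonic kidney and expressing SV40 large T antigen) after knockdown of SIN3A or SIN3B. The 6 genes were taken by symbol from a table of 58734 genes, and all 6 were among the 16686 genes with enough counts to be tested. The set was chosen because SERTAD3 moved in opposite directions in the knockdowns, so the values of SERTAD3 are given below as a description, without a test. The other 5 genes each have a test from a fit over all genes. The groups were cells given siRNA to SIN3A, cells given siRNA to SIN3B and cells given a control siRNA, each at 10 nM for 36 h, with 3 poly-A RNA sequencing libraries per group. All groups shared the same line and transfection reagent, and the labels do not say whether the libraries of a group came from separate transfections, so p-values describe only how much these libraries varied, which may be technical in origin.

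SIN3A and SIN3B are paralogous scaffold proteins that bring histone deacetylases to promoters, among them promoters bound by E2F and its repressive partners. E2F factors bind DNA as dimers with a DP protein, DP1 from TFDP1 or DP2 from TFDP2, and drive genes needed to enter S phase. In general the pocket proteins RB1, RBL1 and RBL2 hold E2F factors in check. How far they do so in this line, which expresses large T antigen, was not measured here. The SERTAD proteins (also called TRIP-Br) share a SERTA domain and a transactivating region, and act as coregulators of E2F and DP. SERTAD1 also binds CDK4, SERTAD2 is exported from the nucleus by XPO1, and SERTAD3 (also called RBT1) was found as a partner of the replication protein RPA2.

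The libraries held 22542798 to 27084884 counts each, and at least 98% of nonzero counts in each library were multiples of 4, so the smallest detectable level was set at 12 counts, or 0.442 to 0.552 CPM (counts scaled by TMM to a common library size), which covers counting error only. SIN3A was left at 32.5% of its control level in the SIN3A knockdown, and SIN3B at 57.3% in the SIN3B knockdown. The SIN3A knockdown libraries lay further apart, with 3.53 to 7.37 times the variance of pure counting (chi-square over its degrees of freedom) between replicates after division by 4, against 1.42 to 1.98 times in the other groups, and replicate 1 was the furthest from the others. All 9 HEK293T marker genes examined were detected. They summed to 1210 to 1470 CPM in SIN3A knockdown libraries, 1140 to 1190 CPM in SIN3B knockdown libraries and 1400 to 1540 CPM in control libraries, so the SIN3B knockdown lay below the controls. For comparison, 6 of 10 markers of blood, liver, fibroblast and endothelial cells were below the detection level in every library. The 10 markers summed to 31.1 to 38.5 CPM in SIN3A knockdown libraries, 26.9 to 30.7 CPM in SIN3B knockdown libraries and 26.3 to 28.6 CPM in control libraries, mostly from COL1A1, and the part of either difference in any result was not tested. PTPRC, CD3E, COL1A2, DCN and CDH5 were at 0 in every library.

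SERTAD3 had the widest ratio between groups of the 6 genes. SERTAD3 (ENSG00000167565, chr19:40440844-40444705, minus strand, GRCh38) had 39.4, 36.6 and 35.3 CPM in the SIN3A knockdown libraries, 11.5, 11.1 and 12.3 CPM in the SIN3B knockdown libraries and 19.4, 22.7 and 20.0 CPM in the control libraries. The 3 groups did not overlap, with the SIN3A knockdown above and the SIN3B knockdown below the controls. SERTAD3 thus stood at 179% of the control mean in the SIN3A knockdown and 56.1% in the SIN3B knockdown, on 856 to 936, 300 to 308 and, in controls, 456 to 580 deposited counts per library. The fitted log2 fold change over control was 0.84 ± 0.11 (SE) in the SIN3A knockdown and -0.83 ± 0.12 in the SIN3B knockdown, and the difference between the knockdowns was 1.67 ± 0.12. Both comparisons share the same control libraries. Over all tested genes, 194, or 1.16%, were called higher in the SIN3A knockdown and called lower in the SIN3B knockdown. The reverse pattern, which RB1 and E2F3 showed (below), was not counted, so this is not the share of all opposite changes. Ranked with these genes by the smaller of both changes, SERTAD3 came 2nd, behind SMIM10L2B and ahead of CCNE1 (cyclin E1). That place follows from how SERTAD3 was chosen and is no test. These are the values by which SERTAD3 was singled out. In bulk RNA, fewer cells with a transcript and less of it per cell cannot be told apart.

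**Figure D1:**
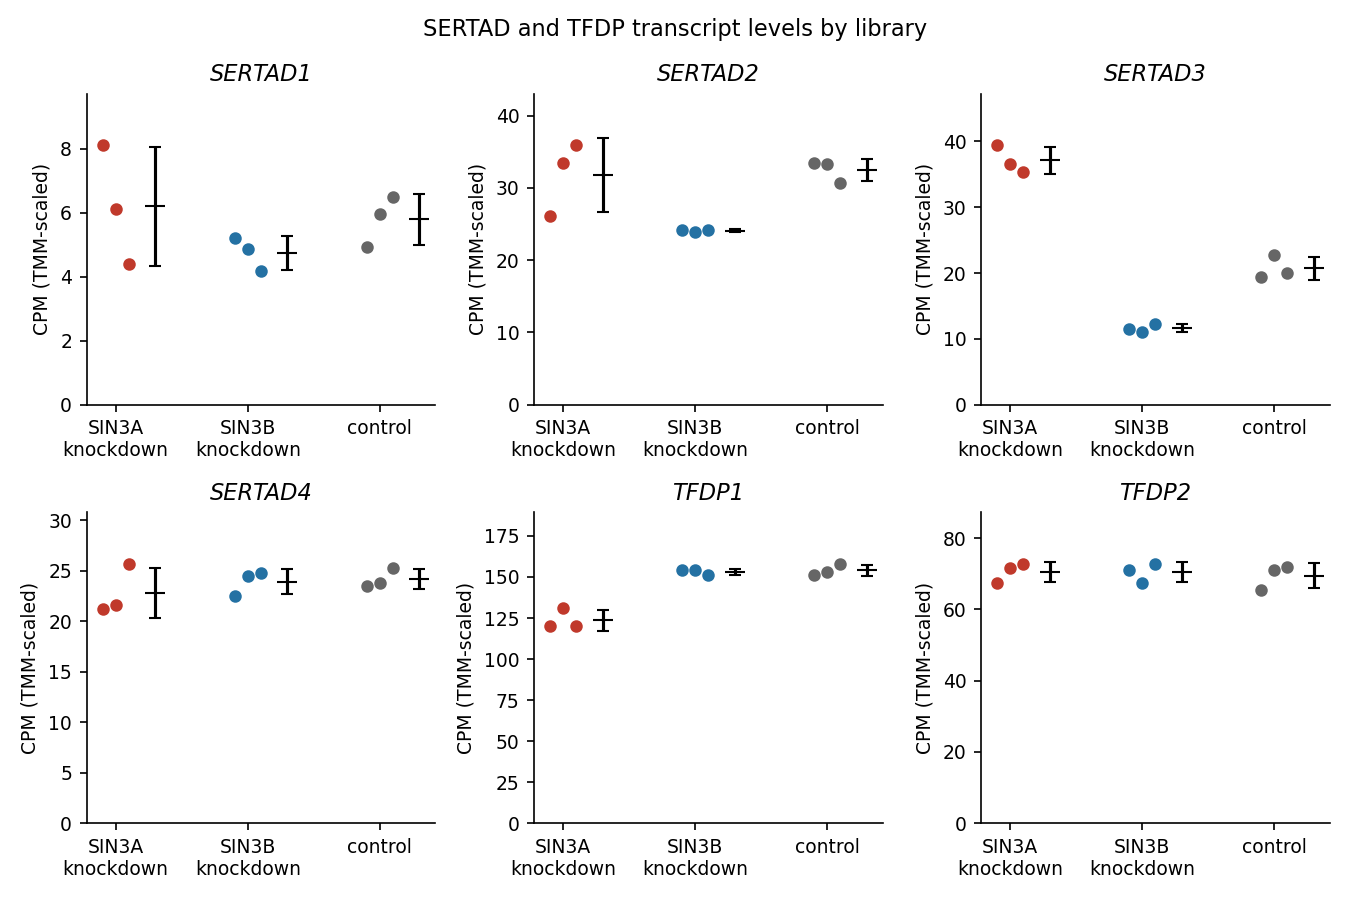
TMM-scaled CPM of the 6 genes in each library (points) with the mean and SD of each group of 3 (bars), for SIN3A knockdown, SIN3B knockdown and control. The SERTAD3 points form 3 separate levels, the TFDP1 points of the SIN3A knockdown lie at 120 to 131 CPM below all others, and the SERTAD2 points of the SIN3B knockdown lie at 23.9 to 24.2 CPM below all others.

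The promoters of the 3 genes whose levels differed between groups are shown because the SIN3 complex acts at promoters. Each runs from 250 bases before to 50 after the RefSeq start on GRCh38.p14, read 5′ to 3′ on the gene's strand, with matches to 4 motifs in capitals. RefSeq gave a promoter for all 6 genes. The only SERTAD2 window lies well inside the annotated span of that gene (chr2:64631621-64751005, minus strand). The upstream end of the span was therefore not searched.
SERTAD3 (chr19:40444286-40444585, minus strand): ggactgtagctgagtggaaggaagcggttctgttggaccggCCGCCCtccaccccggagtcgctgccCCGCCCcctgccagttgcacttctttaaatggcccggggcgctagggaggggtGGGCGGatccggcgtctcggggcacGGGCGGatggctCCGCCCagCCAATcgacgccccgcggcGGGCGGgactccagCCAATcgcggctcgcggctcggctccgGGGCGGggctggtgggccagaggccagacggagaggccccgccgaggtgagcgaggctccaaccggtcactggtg
SERTAD2 (chr2:64653864-64654163, minus strand): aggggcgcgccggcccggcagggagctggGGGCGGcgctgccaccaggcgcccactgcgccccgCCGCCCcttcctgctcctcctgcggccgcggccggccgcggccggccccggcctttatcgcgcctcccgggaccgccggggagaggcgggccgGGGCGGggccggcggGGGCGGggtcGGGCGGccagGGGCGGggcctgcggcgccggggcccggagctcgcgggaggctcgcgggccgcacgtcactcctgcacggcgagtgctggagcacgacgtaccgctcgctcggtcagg
TFDP1 (chr13:113584503-113584802, plus strand): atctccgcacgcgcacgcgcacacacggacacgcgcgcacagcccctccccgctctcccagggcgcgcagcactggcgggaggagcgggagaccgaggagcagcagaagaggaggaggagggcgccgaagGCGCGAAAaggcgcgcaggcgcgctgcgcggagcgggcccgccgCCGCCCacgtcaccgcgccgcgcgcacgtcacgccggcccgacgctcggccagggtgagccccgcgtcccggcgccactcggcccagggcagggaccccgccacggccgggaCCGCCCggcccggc
Both strands were searched for the E2F forms TTTCCCGC, TTTCGCGC, TTTGGCGC and TTTGCCGC, the E-box CACGTG, the GC box GGGCGG and the CCAAT box, and no match overlapped another in these 3 windows. The SERTAD3 window held 7 GC boxes and 2 CCAAT boxes, and no listed E2F form or E-box. SERTAD2 held 6 GC boxes and no other match, and TFDP1 held 1 E2F form, at base 131, and 2 GC boxes. Such matches were not limited to the genes whose levels differed. Of the genes without a called change, SERTAD1 held 5 GC boxes and 1 CCAAT box. A SERTAD4 window held 1 E2F form, at base 53, and 2 GC boxes, and a TFDP2 window held 3 GC boxes and 2 CCAAT boxes. Among 35116 promoters of this length, 45.0% held a GC box, 34.6% a CCAAT box, 7.26% an E-box and 3.31% any of the E2F forms. A match describes the letters and not binding, and no match says only that these letters are not in the window.

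SERTAD2 fell in the SIN3B knockdown and not, past the threshold, in the SIN3A knockdown. SERTAD2 (ENSG00000179833, chr2:64631621-64751005, minus strand) had 26.1, 33.5 and 35.9 CPM in the SIN3A knockdown libraries, 24.2, 23.9 and 24.2 CPM in the SIN3B knockdown libraries and 33.4, 33.3 and 30.7 CPM in the control libraries. The SIN3B knockdown lay below every control and every SIN3A knockdown library, while the SIN3A knockdown overlapped the controls, with replicate 1 lowest. The log2 fold change was -0.43 ± 0.12 in the SIN3B knockdown (edgeR quasi-likelihood adjusted p = 0.00907), which left 74.1% of the control level. In the SIN3A knockdown it was -0.03 ± 0.11 (edgeR adjusted p = 0.894), with a 95% interval of -0.27 to 0.21. The knockdowns differed from each other by 0.40 ± 0.12 (edgeR adjusted p = 0.0121), which missed the threshold when SIN3A knockdown replicate 3 was left out (0.31, adjusted p = 0.0529).

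SERTAD1 and SERTAD4 did not pass the test in any comparison. SERTAD1 (ENSG00000197019, chr19:40421592-40426025, minus strand), the coregulator that binds CDK4, had 8.10, 6.10 and 4.39 CPM in the SIN3A knockdown libraries, 5.20, 4.86 and 4.16 CPM in the SIN3B knockdown libraries and 4.93, 5.95 and 6.50 CPM in the control libraries. All 3 groups overlapped, and the SIN3A knockdown spread widest, with an SD of 1.86 CPM. Its log2 fold change was 0.09 (95% interval -0.38 to 0.56) in the SIN3A knockdown and -0.29 (-0.76 to 0.19) in the SIN3B knockdown (edgeR adjusted p = 0.815 and 0.419). SERTAD1 had only 104 to 176 deposited counts per library. Most deposited counts were multiples of 4, so fewer separate counts may stand behind these. The interval of SERTAD1 in the SIN3B knockdown does not exclude a fall of the size seen for SERTAD2 there.

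SERTAD4 (ENSG00000082497, chr1:210232799-210246631, plus strand), the least studied of the family, had 21.2, 21.6 and 25.7 CPM in the SIN3A knockdown libraries, 22.5, 24.5 and 24.8 CPM in the SIN3B knockdown libraries and 23.5, 23.8 and 25.3 CPM in the control libraries. The groups overlapped throughout. The log2 fold change was -0.08 (95% interval -0.32 to 0.15) in the SIN3A knockdown and -0.02 (-0.25 to 0.22) in the SIN3B knockdown (edgeR adjusted p = 0.654 and 0.947). SERTAD4 overlaps at its 5′ end the antisense gene SERTAD4-AS1, which averaged 1.96 CPM, and whether reads were counted by strand is not given in the sources used here, so a small part of its counts is uncertain. An antisense gene within SERTAD3, AC010271.1, had at most 4 counts in any library.

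TFDP1 fell in the SIN3A knockdown, and TFDP2 passed the test in no comparison. TFDP1 (ENSG00000198176, chr13:113584721-113641470, plus strand), which encodes DP1, a common partner of E2F in its dimers, had 120, 131 and 120 CPM in the SIN3A knockdown libraries, 154, 154 and 151 CPM in the SIN3B knockdown libraries and 151, 153 and 158 CPM in the control libraries. The SIN3A knockdown lay below every other library, and the SIN3B knockdown overlapped the controls. The level of TFDP1 in the SIN3A knockdown fell by 0.32 ± 0.07 on the log2 scale (edgeR adjusted p = 0.00157), a fold of 0.80. In the SIN3B knockdown the log2 fold change was -0.01 ± 0.07 (95% interval -0.15 to 0.13, edgeR adjusted p = 0.933), and the knockdowns differed by -0.31 ± 0.07 (edgeR adjusted p = 0.00136).

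TFDP2 (ENSG00000114126, chr3:141944428-142149544, minus strand), the gene of the second DP partner, had 67.3, 71.7 and 72.7 CPM in the SIN3A knockdown libraries, 71.2, 67.5 and 72.8 CPM in the SIN3B knockdown libraries and 65.5, 71.1 and 71.8 CPM in the control libraries. The groups overlapped, and the log2 fold change was 0.02 in each knockdown (95% intervals -0.14 to 0.19 for SIN3A and -0.14 to 0.18 for SIN3B, edgeR adjusted p = 0.871 and 0.888). The ratio of TFDP1 counts to TFDP2 counts, which does not depend on library scaling, was 1.75 ± 0.09 in the SIN3A knockdown, 2.17 ± 0.11 in the SIN3B knockdown and 2.22 ± 0.07 in controls (SD, n = 3 each). Its values in the SIN3A knockdown libraries were 1.64 to 1.82, below the 2.07 to 2.30 of all other libraries. The ratio of SERTAD3 to SERTAD2 counts was 1.19 ± 0.28, 0.483 ± 0.024 and, in controls, 0.638 ± 0.051 in the same order, and takes in the change by which SERTAD3 was chosen.

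**Figure D2:**
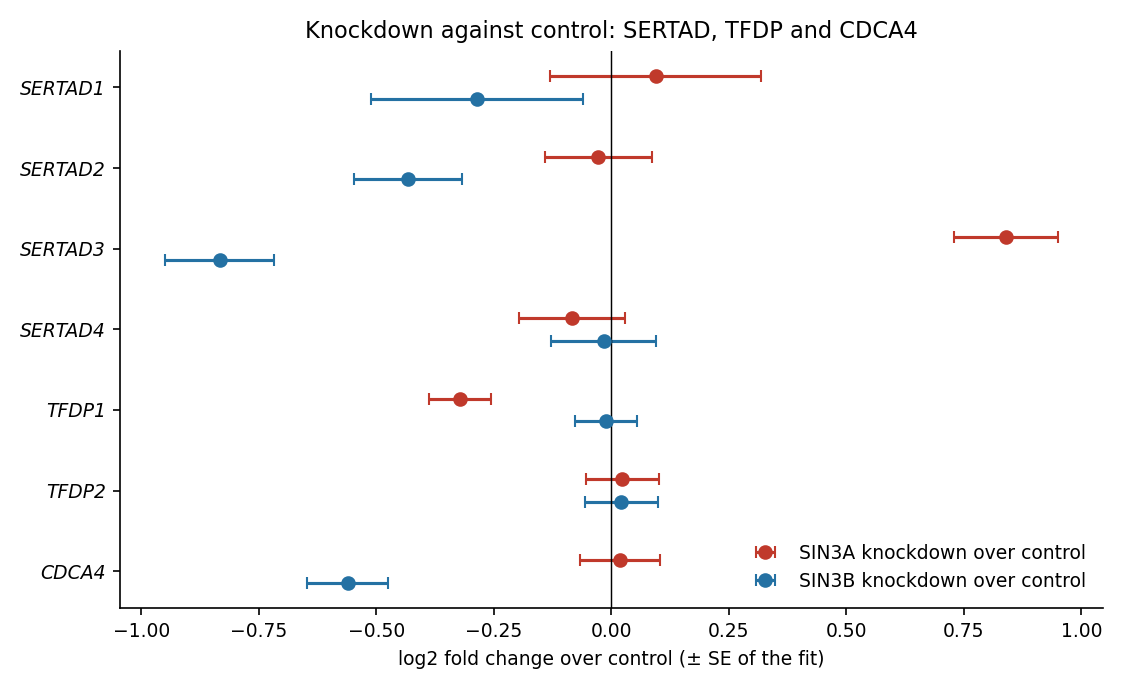
Log2 fold change over control with its standard error, for SIN3A knockdown (red) and SIN3B knockdown (blue), of the 6 genes and of CDCA4, which also has a SERTA domain. SERTAD3 lies at 0.84 and -0.83, TFDP1 is below 0 at -0.32 in the SIN3A knockdown, and SERTAD2 and CDCA4 are below 0 at -0.43 and -0.56 in the SIN3B knockdown.

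Of the 5 genes with a test, 1 (20.0%) was called in the SIN3A knockdown, where 23.0% of all tested genes were called, 12.2% higher and 10.8% lower. In the SIN3B knockdown 1 of 5 was called, where the share of all genes was 23.6%, 12.0% higher and 11.6% lower. Between the knockdowns 2 of 5 were called, against 27.1% of all genes, 14.5% higher and 12.6% lower. With 5 genes these shares do not set the family apart from the background. The median log2 fold change of all 6 genes was 0.00 in the SIN3A knockdown and -0.15 in the SIN3B knockdown, beside medians over all tested genes of 0.00 and -0.02. Across the 9 libraries the log2 CPM of SERTAD3 and TFDP1 had a Pearson correlation of -0.823, and that of SERTAD3 and SERTAD2 one of 0.67. Both describe points that share the group differences above.

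Per kilobase of exon (GENCODE 29), TFDP1 had the highest level of the 6 in every group, with 33.0 ± 1.7 CPM per kb in the SIN3A knockdown, 40.9 ± 0.6 in the SIN3B knockdown and 41.2 ± 1.0 in controls (SD, n = 3 each). SERTAD3 came next in the SIN3A knockdown, at 16.7 ± 0.9, and in controls, at 9.33 ± 0.79 CPM per kb, followed by TFDP2 (5.93 and 5.84), SERTAD2 (5.07 and 5.18), SERTAD4 (4.17 and 4.43) and SERTAD1 (2.93 and 2.74). In the SIN3B knockdown SERTAD3 ranked below TFDP2, at 5.24 ± 0.29 CPM per kb against 5.93 ± 0.23 for TFDP2, and above SERTAD4 at 4.38 ± 0.23, SERTAD2 at 3.84 ± 0.03 and SERTAD1 at 2.24 ± 0.25 CPM per kb. Library ranges of TFDP2 and SERTAD2 in the SIN3A knockdown (5.66 to 6.11 and 4.16 to 5.72) overlapped, as did those of SERTAD2 and SERTAD4 there. Within each SIN3A knockdown library, however, TFDP2 stood above SERTAD2 and SERTAD2 above SERTAD4. These differences were not tested. The order was the same with the length of the longest transcript. SERTAD1 was lowest in every group, and its library range in the SIN3A knockdown, 2.08 to 3.83 CPM per kb, stayed below the 3.87 to 4.70 of SERTAD4.

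**Figure D3:**
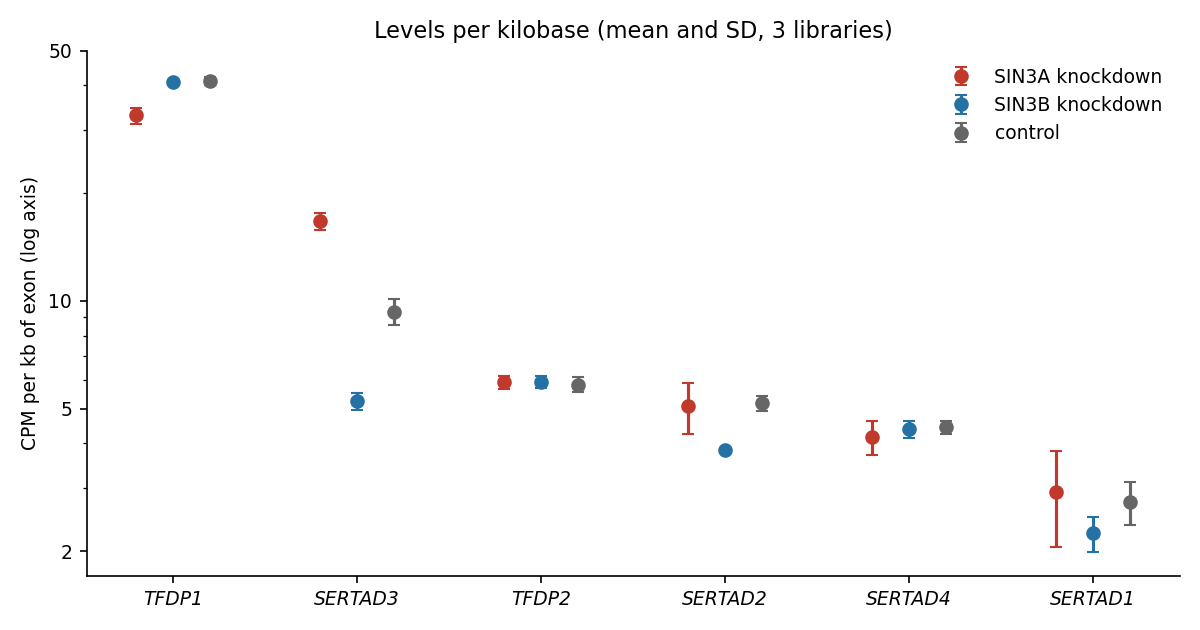
Mean level per kilobase of exon (log axis) with SD over 3 libraries for SIN3A knockdown, SIN3B knockdown and control, in the order of the control levels. TFDP1 stands highest in every group, and SERTAD3 ranges between 5.24 and 16.7 CPM per kb across the groups.

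CDCA4, which encodes a further SERTA domain protein, also fell in the SIN3B knockdown. CDCA4 (ENSG00000170779, chr14:105009573-105021148, minus strand) had 56.7, 55.6 and 51.9 CPM in the SIN3A knockdown libraries, 38.9, 35.1 and 35.9 CPM in the SIN3B knockdown libraries and 53.2, 52.6 and 56.2 CPM in the control libraries. The SIN3B knockdown lay below all other libraries. Its log2 fold change was -0.56 ± 0.09 in the SIN3B knockdown (edgeR adjusted p = 0.000107) and 0.02 ± 0.09 in the SIN3A knockdown (edgeR adjusted p = 0.91), and the knockdowns differed by 0.58 ± 0.09 (edgeR adjusted p = 4.63e-05).

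An siRNA can also lower transcripts that carry a match to its seed in the 3′ UTR. The siRNA sequences are not given in the sources used here, so 7-base words were read from the 3′ UTRs of 10878 genes. Words were ranked by how far fold changes were lower with the word than without it, relative to the standard error of that difference. Fold changes were first adjusted for UTR length and GC content. For the SIN3A knockdown the leading word was GGTCTAA, followed by the overlapping word AGGTCTA and then, as the last of the 3 kept, by TGGTCTA. For the SIN3B knockdown the leading word was ACAGCCT, followed by the overlapping word CAGCCTA and then, as the last of the 3 kept, by CAGCCTT. Of genes with any SIN3A knockdown word, 23.6% were called lower in that knockdown, against 11.5% of genes without one, and for the SIN3B knockdown words the shares were 22.7% and 12.4%. The words were chosen on these values, which are a description. SERTAD3 and TFDP1 held none of the words of either knockdown in UTRs of 646 and 1203 bases. SERTAD2 and CDCA4, which fell in the SIN3B knockdown, held such words at 1 and 2 sites, and TFDP2, which did not pass the test, at 1 site. Their 30-base surroundings (GRCh38, 5′ to 3′ on the transcript, minus strand) are shown with the word in capitals, because a matching site bears on how the fall of a transcript in that knockdown is read.
SERTAD2 (chr2:64632266-64632295): ataccgcagggCAGCCTTcttaaatgacaa
CDCA4 (chr14:105011097-105011126): cgccagcggccCAGCCTTgctgccctgtct
CDCA4 (chr14:105010087-105010116): gggggtgcctgCAGCCTTccactcctgccc
TFDP2 (chr3:141946734-141946763): gccaccacgccCAGCCTAagattttatgat
In all, 28.5% of the genes searched held a SIN3B knockdown word and 11.4% a SIN3A knockdown word, TFDP2 at 2 sites and SERTAD4 at 1. The SERTAD2 and CDCA4 sites were all CAGCCTT, a word held by 18.3% of the genes searched, with a mean log2 difference of -0.08. None of them was the leading word ACAGCCT, which had a mean log2 difference of -0.14. The part of these sites in the fall of SERTAD2 and CDCA4 was not tested.

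The genes with which SERTAD and DP proteins work moved in both directions. These lists were fixed with earlier results of these libraries known, so their counts are descriptions, to be read against 12.2% of all tested genes called higher and 10.8% lower in the SIN3A knockdown, and 12.0% higher and 11.6% lower in the SIN3B knockdown. Their median log2 fold changes, given in that order of knockdowns, stand beside 0.00 and -0.02 for all genes. Of 8 E2F genes, 1 was called lower in the SIN3A knockdown and none higher, and in the SIN3B knockdown 1 was called higher and 1 lower, with medians of -0.07 and -0.01. E2F3, an activating E2F, fell in the SIN3A knockdown (log2 fold change -0.28 ± 0.07, edgeR adjusted p = 0.00909) and rose in the SIN3B knockdown (0.33 ± 0.07, adjusted p = 0.00227), with 70.3 to 79.8 CPM in SIN3A knockdown libraries, 111 to 114 CPM in SIN3B knockdown libraries and 89.0 to 90.5 CPM in control libraries. E2F1 was the gene called lower in the SIN3B knockdown, at -0.97 ± 0.07. E2F6, which represses without pocket proteins, differed between the knockdowns by -0.49 ± 0.13 (edgeR adjusted p = 0.00638). It passed the test in neither knockdown, at -0.35 in the SIN3A knockdown (adjusted p = 0.0501). E2F6 passed there without control replicate 3 or SIN3A knockdown replicate 2 (adjusted p = 0.0381 and 0.0305), under upper-quartile factors (0.0208), with counts divided by 4 (0.0377) and with GC and length offsets (0.0432). It missed the threshold under every other alternative, with adjusted p of 0.0524 to 0.22, highest without control replicate 1. The counts of called E2F genes shifted with scaling, to 3 lower in the SIN3A knockdown under upper-quartile factors. With GC and length offsets 2 were higher and 2 lower in the SIN3A knockdown, E2F1 among the higher (0.19, adjusted p = 0.0405), and 2 higher and 2 lower in the SIN3B knockdown.

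Of the 3 pocket protein genes, 1 was called higher and 1 lower in each knockdown, with medians of 0.17 and 0.25. RB1 was called lower in the SIN3A knockdown (-1.06 ± 0.13) and higher in the SIN3B knockdown (0.52 ± 0.12, which missed the threshold at 0.17 when GC content and exon length entered as offsets). RBL2 (p130) fell in the SIN3B knockdown (-0.30 ± 0.08, edgeR adjusted p = 0.00951), with 68.9 to 74.9 CPM there against 84.9 to 94.3 CPM in control libraries, and missed the threshold without control replicate 3 (adjusted p = 0.0656). The called rise of RBL1 (p107) in the SIN3A knockdown, 0.32 ± 0.11 (edgeR adjusted p = 0.0355), missed the threshold without any single control library, SIN3A knockdown replicate 1 or 2, or SIN3B knockdown replicate 3 (adjusted p = 0.052 to 0.13), and also under upper-quartile factors (adjusted p = 0.0992). The call was also lost with GC and length offsets (edgeR adjusted p = 0.0957) and in both limma fits on log2 FPKM (limma adjusted p = 0.155 and 0.182).

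Among the 8 G1 cyclins and kinases that relieve pocket protein control, 2 were called higher and none lower in the SIN3A knockdown, and none higher and 4 lower in the SIN3B knockdown, with medians of 0.11 and -0.20. CCND3 (cyclin D3) rose in the SIN3A knockdown, with 68.6 to 75.6 CPM there and 52.3 to 57.8 CPM in control libraries (log2 fold change 0.38 ± 0.08, edgeR adjusted p = 0.00217). CCNE1, the cyclin ranked next to SERTAD3, was at 1.01 ± 0.08 in the SIN3A knockdown and -0.82 ± 0.09 in the SIN3B knockdown. CCNE2 (-0.43 ± 0.13), CDK6 (-0.28 ± 0.10) and CDK2 (-0.19 ± 0.07) were the other genes called lower in the SIN3B knockdown, and each lost its call when single libraries were left out. CCNE2 missed the threshold without control replicate 1 or 2 or SIN3B knockdown replicate 1 or 2 (adjusted p = 0.0549 to 0.0859). CDK6 missed it without control replicate 1 or 3 or any SIN3B knockdown library (0.0667 to 0.218), and CDK2 without control replicate 1 or 2 or any SIN3B knockdown library (0.0776 to 0.164). The call of CDK2 was also lost with size factors of the DESeq2 type, with either other count filter and with GC and length offsets (edgeR adjusted p = 0.0547 to 0.258). Both limma fits on log2 FPKM lost the calls of CDK2 (limma adjusted p = 0.171 and 0.16) and CDK6 (0.0679 and 0.0697). With GC and length offsets 1 gene, CCND3, was called higher in the SIN3B knockdown.

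Of 6 reported binding partners of SERTAD proteins, 1 was called lower in the SIN3A knockdown and 2 higher in the SIN3B knockdown, with medians of 0.00 and 0.11. XPO1, the exporter of SERTAD2, rose in the SIN3B knockdown, with 363 to 416 CPM there and 304 to 329 CPM in control libraries (0.31 ± 0.07, edgeR adjusted p = 0.00385), and missed the threshold at 0.09 with GC and length offsets. RPA2, the partner of SERTAD3, was called higher in the SIN3B knockdown at 0.19 ± 0.06 (edgeR adjusted p = 0.0346) and lost the call without any single control or SIN3B knockdown library (adjusted p = 0.0541 to 0.204). TRIM28, a corepressor with a PHD finger and bromodomain reported to bind SERTAD1, was called lower in the SIN3A knockdown at -0.19 ± 0.06 (edgeR adjusted p = 0.0265), a call lost without any single control library (adjusted p = 0.0727 to 0.0854). With GC and length offsets TRIM28 was at -0.11 in the SIN3A knockdown (adjusted p = 0.153) and was called higher in the SIN3B knockdown (0.24, adjusted p = 0.00254). CREBBP, an acetyltransferase, differed between the knockdowns by -0.55 ± 0.15 (edgeR adjusted p = 0.0135), and that call was lost without SIN3B knockdown replicate 1 (adjusted p = 0.091). Without SIN3A knockdown replicate 1, which stood at 67.9 CPM against 119 and 116 CPM in the other libraries of its group, the difference was -0.32 (adjusted p = 0.000515), and CREBBP was then called higher in the SIN3B knockdown (0.33, adjusted p = 0.000145, against 0.32 and 0.145 with all libraries). With GC and length offsets CREBBP was also called higher in the SIN3B knockdown (0.48, adjusted p = 0.0063).

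Of the 6 genes of the MuvB core and its MYB partner, which join DP and E2F proteins in the DREAM complex or follow it in the cell cycle, 3 were called higher and 1 lower in the SIN3A knockdown, and 2 higher and 1 lower in the SIN3B knockdown. The medians were 0.26 and 0.04. With GC and length offsets 2 were called lower in the SIN3B knockdown, RBBP4 among them (-0.23, edgeR adjusted p = 0.00462). LIN9 rose in the SIN3B knockdown, with 56.5 to 63.4 CPM there and 36.3 to 39.1 CPM in control libraries (0.68 ± 0.09, edgeR adjusted p = 2.67e-05). LIN54, the DNA-binding subunit, rose there too (0.62 ± 0.13, adjusted p = 0.00139). LIN52 (0.41 ± 0.11) and LIN37 (0.66 ± 0.21) were called higher in the SIN3A knockdown, and both lost the call without control replicate 2 (adjusted p = 0.0501 and 0.124), LIN37 also without control replicate 3 or SIN3A knockdown replicate 3 (0.069 and 0.131). The call of LIN37 was also lost under upper-quartile factors (edgeR adjusted p = 0.0521). RBBP4, also a subunit of the SIN3 complex, was at -0.61 ± 0.06 in the SIN3A knockdown. MYBL2 was at 0.28 ± 0.07 in the SIN3A knockdown and -0.99 ± 0.07 in the SIN3B knockdown.

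Of 24 known target genes of E2F and DP, 5 were called higher and none lower in the SIN3A knockdown, and 3 higher and 5 lower in the SIN3B knockdown, with medians of 0.08 and -0.06. The list holds E2F1, CCNE1, CCNE2 and RBL1, which also stand in the lists above. CDC25A, a phosphatase that activates CDK2, rose in both knockdowns, by 0.29 ± 0.06 (SIN3A) and 0.30 ± 0.06 (SIN3B, edgeR adjusted p = 0.00301 and 0.00183). CCNA2 (cyclin A2) rose in the SIN3B knockdown (0.44 ± 0.07, adjusted p = 0.00013), and PCNA, the replication clamp, was called higher there (0.23 ± 0.08, adjusted p = 0.04), a call lost without any single control or SIN3B knockdown library (0.0698 to 0.177) and under upper-quartile factors (0.0965). TK1 (-0.86 ± 0.09) and RRM2 (-1.15 ± 0.07), enzymes of nucleotide supply, were lower there, and TK1 rose in the SIN3A knockdown (0.40 ± 0.09, edgeR adjusted p = 0.00258). CDT1, a replication licensing factor, was called higher in the SIN3A knockdown at 0.25 ± 0.07 (edgeR adjusted p = 0.016). It lost the call without control replicate 1 or 2 (0.0748 and 0.0698) and under upper-quartile factors (0.18, adjusted p = 0.0878). The count higher in the SIN3A knockdown was 3 under upper-quartile factors and 10 with GC and length offsets, and the count lower in the SIN3B knockdown was 9 under upper-quartile factors and 9 without SIN3A knockdown replicate 1. The count lower in the SIN3A knockdown was 1 under upper-quartile factors and 1 without SIN3A knockdown replicate 1. The count higher in the SIN3B knockdown was 5 with GC and length offsets.

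**Figure D4:**
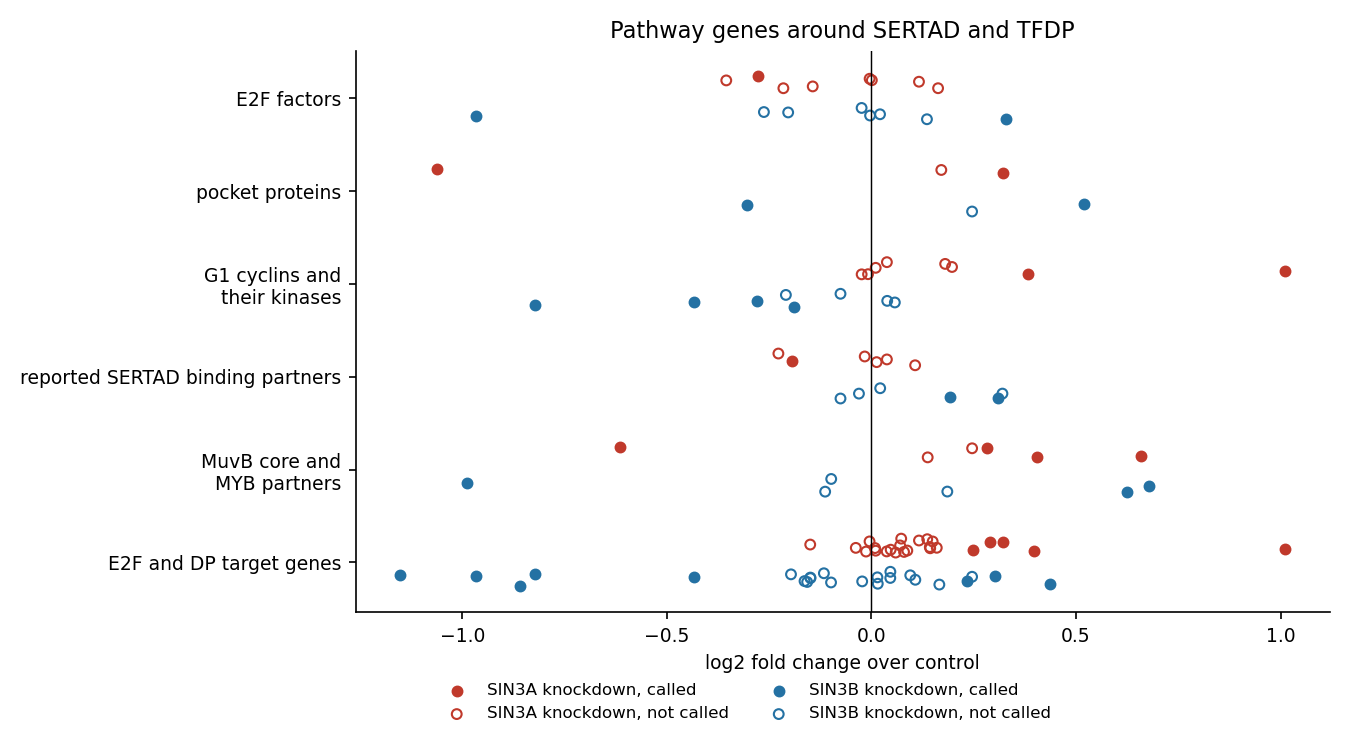
Log2 fold change over control of each tested gene in 6 lists, SIN3A knockdown in red above SIN3B knockdown in blue within each list, with filled points for genes called at an adjusted p of 0.05. Called genes lie on both sides of 0 in most lists, and none of the 8 G1 cyclin and kinase genes was called higher in the SIN3B knockdown.

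SERTAD1 and SERTAD3 are neighbouring protein-coding genes on chromosome 19, with 14.8 kb between them that hold the lincRNA AC010271.2, which had too few counts to be tested. Within 50 kb of the pair, 10 annotated genes were found and 6 were tested. BLVRB, which encodes biliverdin reductase B and lies on the side of SERTAD3 away from SERTAD1, had 50.6, 43.7 and 37.3 CPM in the SIN3A knockdown libraries, 23.1, 24.8 and 22.1 CPM in the SIN3B knockdown libraries and 28.8, 31.3 and 31.8 CPM in the control libraries. The groups did not overlap and stood in the same order as for SERTAD3. BLVRB rose in the SIN3A knockdown (0.52 ± 0.11, edgeR adjusted p = 0.00243) and fell in the SIN3B knockdown (-0.39 ± 0.11, adjusted p = 0.0154). Its fall missed the threshold without control replicate 3 (-0.36, adjusted p = 0.0663) or SIN3B knockdown replicate 3 (-0.35, adjusted p = 0.0781), and with GC and length offsets (-0.18, adjusted p = 0.204).

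PLD3, on the far side of SERTAD1, fell in the SIN3B knockdown (-0.35 ± 0.07, edgeR adjusted p = 0.00154) and was at -0.03 ± 0.07 in the SIN3A knockdown (adjusted p = 0.815). With GC and length offsets its value in the SIN3B knockdown was -0.14 (adjusted p = 0.117). SPTBN4, a spectrin gene whose start lies 21.5 kb from that of SERTAD3, was called lower in the SIN3A knockdown at -0.91 ± 0.26 (edgeR adjusted p = 0.0155), a call lost without control replicate 2 (adjusted p = 0.0794) or SIN3A knockdown replicate 3 (adjusted p = 0.0653). PRX (periaxin) passed in neither comparison, at 0.27 ± 0.21 in the SIN3A knockdown and 0.00 ± 0.22 in the SIN3B knockdown.

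**Figure D5:**
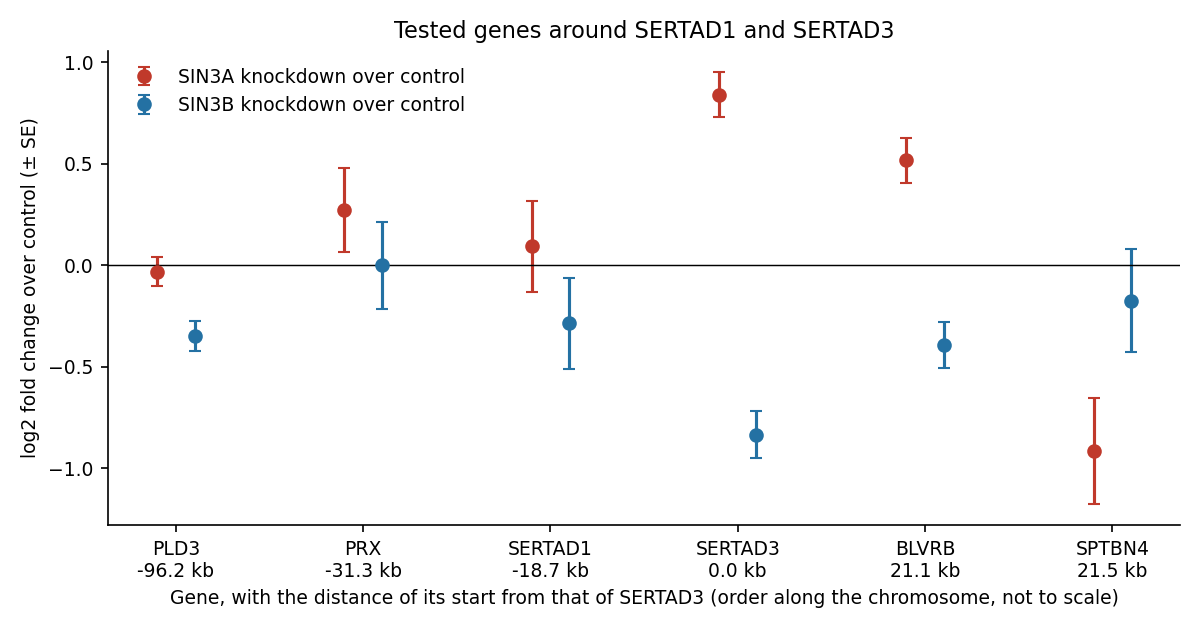
Log2 fold change over control with its standard error of the 6 tested genes around SERTAD1 and SERTAD3, in their order along the chromosome, for SIN3A knockdown (red) and SIN3B knockdown (blue). SERTAD3 and BLVRB are above 0 in the SIN3A knockdown and below 0 in the SIN3B knockdown, and SERTAD1 between PRX and SERTAD3 has standard errors of 0.22 and 0.23.

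The genes most like each of the 6 were read from the Pearson correlation of log2 CPM over the 9 libraries, among 12814 genes, as a description. For SERTAD3 they were EPOR (0.995), ZNF778 (0.995), VAT1 (0.993), FAM45A (0.992) and P3H1 (0.990). VAT1 had log2 fold changes of 1.01 in the SIN3A knockdown and -0.81 in the SIN3B knockdown, and EPOR, the erythropoietin receptor gene, had 0.69 and -0.63. For SERTAD2 the leading genes were CSPG5 (0.981), GPHN (0.977), CECR2 (0.974), SELENON (0.973) and NOTCH2 (0.972), and for TFDP1 they were TMEM121B (0.989), CNDP2 (0.986), CENPO (0.985), FLJ37453 (0.982) and PRDM11 (0.981). The leading genes of TFDP1 had log2 fold changes in the SIN3A knockdown further below 0 than TFDP1 itself, such as -1.43 for TMEM121B and -0.90 for CNDP2. The highest values for SERTAD1 (PGLS, GSTO1, NTMT1, MRPL52, MAP2K2), SERTAD4 (HERC2P9, USP42, GRK3, RUNX1T1, ARRDC3-AS1) and TFDP2 (SPRED3, SCO1, APOBEC3F, ZNF697, GFOD1) were 0.979, 0.917 and 0.883, and these 3 genes had no called change.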

How the data were processed

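Counts per Ensembl gene and FPKM values were deposited by the authors for 9 libraries. The submitters' processing notes name Trimmomatic 0.36, HISAT2 2.1.0, HTSeq and DESeq2 1.20.0, and the build GRCh38. Groups come from the sample titles, since the treatment text of each sample names only the control siRNA. The 6 genes, the lists and the tests were chosen with earlier results of these data known.

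Counts were fitted as deposited in edgeR 4.0.16 (R 4.3.3; TMM, default expression filter with a minimum count of 10, robust quasi-likelihood F-test) over all 9 libraries. P-values are two-sided and Benjamini-Hochberg adjusted over 16686 genes within each comparison. The threshold was 0.05, and the procedure was tested on simulated counts. Levels are TMM-scaled CPM. Named genes are the 6, up to 4 called genes with the lowest adjusted p per list, direction and comparison, tested neighbours and the 5 most alike genes. Symbols, lengths and UTRs are from GENCODE 29, promoters from RefSeq (GRCh38.p14). Alternatives were other scalings and filters, DESeq2 1.42.0, limma 3.58.1 on log2 FPKM with pseudocounts of 1 and 0.1 (deposited FPKM values were not used otherwise), a replicate block, only the 6 libraries compared, counts divided by 4, offsets for GC and length, and leaving out each library. List counts without SIN3A knockdown replicate 1, named genes under every alternative and the word and motif searches were added after seeing the data. Figures used matplotlib 3.10.9. The word search in the UTR of SERTAD1 is not reported here.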

Additional observations from a re-analysis of the deposited data

Results flagged for a closer look

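The knockdowns differed from each other, by the direct edgeR comparison of SIN3A knockdown over SIN3B knockdown at an adjusted p under 0.05, in 28 of 38 genes, namely the 5 tested genes of the family and the genes named from the lists, from the neighbourhood and as antisense partner. Over all genes tested, 27.1% were called in this comparison. The list genes were named because they were called in some comparison, so the share is no result. SERTAD3 and the genes named for likeness were chosen by their pattern and are not counted. Each of the 28 is given as its log2 difference. SERTAD2 was at 0.40, TFDP1 at -0.31 and CDCA4 at 0.58. Among E2F and pocket protein genes E2F1 was at 1.08, E2F3 at -0.60, E2F6 at -0.49, RB1 at -1.58 and RBL2 at 0.47. Among G1 cyclins and kinases CCND3 was at 0.33, CDK6 at 0.27, CCNE1 at 1.83, CCNE2 at 0.44 and CDK2 at 0.37. Of the binding partners TRIM28 was at -0.22, CREBBP at -0.55 and XPO1 at -0.33. In the MuvB group LIN9 was at -0.54, LIN52 at 0.52, LIN54 at -0.38, RBBP4 at -0.52 and MYBL2 at 1.27. Of the target genes CCNA2 was at -0.47, CDT1 at 0.40, RRM2 at 1.15 and TK1 at 1.25. Of the neighbours PLD3 was at 0.32, BLVRB at 0.91 and SPTBN4 at -0.74. Without SIN3A knockdown replicate 1 CREBBP was at -0.32, and without SIN3A knockdown replicate 3 SPTBN4 was at -0.45. With single libraries left out, the adjusted p of the difference reached 0.0529 for SERTAD2, 0.0657 for CCNE2, 0.185 for CDK6, 0.0691 for TRIM28, 0.091 for CREBBP, 0.139 for LIN54 and 0.169 for SPTBN4, and that of the other genes stayed under 0.05.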

How the results depend on the processing

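TFDP1 in the SIN3A knockdown, TFDP1 between the knockdowns and SERTAD2 in the SIN3B knockdown were called under all 20 alternatives, with adjusted p up to 0.0162, 0.01 and 0.0417. SERTAD2 between the knockdowns was called under 19 of 20. Leaving out single libraries, it ranged between 0.31 and 0.54. SERTAD3 was at -0.65 (SIN3B) and 1.55 (between knockdowns) with GC and length offsets. Upper-quartile factors left 1352 genes higher in the SIN3A knockdown in place of 2029, and the cause was not tested. They moved the median log2 fold change of all genes by less than 0.1, in the SIN3A knockdown from -0.00155 to -0.0701. Leaving out single libraries, genes called higher numbered 1321 to 2269 (SIN3A, lowest without control replicate 2) and 1331 to 2465 (SIN3B, lowest without control replicate 2), and genes called lower in the SIN3A knockdown 1189 to 1740 (lowest without control replicate 3). Replicate numbers did not pair the libraries (correlations of deviations -0.17 to 0.0674), and the fit with the replicate block called 3478, 3654 and 4239 genes (SIN3A, SIN3B, between) in place of 3836, 3939 and 4527, with no call among the 6 genes changed. With the block RBL1 in the SIN3A knockdown (adjusted p = 0.0536), CDK2, CDK6 and PCNA in the SIN3B knockdown (0.0705, 0.0654 and 0.0603) and CDK6 between the knockdowns (0.0696) lost their calls. No named gene reversed a called direction. The alternatives given above for a named gene are not always all of those under which its call was lost. SERTAD1 is limited by 104 to 176 counts per library.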

Other observations

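CREBBP was at 67.9, 119 and 116 CPM in the SIN3A knockdown libraries, 158, 143 and 143 CPM in the SIN3B knockdown libraries and 118, 117 and 120 CPM in the control libraries, so that replicate 1 of the SIN3A knockdown stood apart. RB1 was at 17.3, 19.4 and 27.6 CPM, 60.1, 70.0 and 62.4 CPM and, in controls, 45.6, 43.5 and 45.3 CPM in the same order. SERTAD4-AS1 had 2.27 ± 0.28 CPM in the SIN3A knockdown, 1.74 ± 0.30 CPM in the SIN3B knockdown and 1.86 ± 0.37 CPM in controls (SD, n = 3 each) and passed the test in neither knockdown (log2 fold change 0.28 ± 0.33 and -0.09 ± 0.33).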
